A study of Rattus with 27 samples.

Results

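White blood cells of rats labelled model were set against those of sham-operated rats on 6 of the series' 27 expression arrays, 3 in each group. The arrays were chosen by their titles, which give model 1, 2 and 3 and sham 3, 4 and 5 in blood at 6 h. They hold 1 array per rat. The series took brain, spleen and blood from 9 Sprague Dawley rats, and the white cells were isolated from the blood before RNA was extracted. The model-labelled rats had undergone middle cerebral artery occlusion (MCAO), in which a main artery of the brain is blocked to give an experimental ischaemic stroke. A second operated group, the vehicle-labelled rats 2, 4 and 5, had undergone the same operation. In the sham rats the anaesthesia and the dissection of the vessels were done without the occlusion. The protocol names the operated groups differently from the titles, as vehicle control rats and rats dosed with YJ at 25 mg/kg, where YJ stands for the Yiqi Jiedu formulae that the study is about. Nothing in the labels says which of the titles stands for which, so the model-labelled rats may or may not have received YJ, and a difference from sham cannot be read as the effect of the operation alone. Every group had anaesthesia and surgery, and the labels give neither the age nor the sex of the rats.

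Heat shock proteins are chaperones that help other proteins to fold. The cytosolic chaperone Hsp90 works with Hsp70, with the adaptor encoded by Stip1, which hands client proteins from Hsp70 to Hsp90, and with co-chaperones that bring in or release clients. When unfolded proteins build up, the transcription factor Hsf1 switches on genes of this system, while unfolded proteins in the endoplasmic reticulum switch on another set through sensors that include Ire1, whose target is Xbp1. White blood cell preparations hold lymphocytes, monocytes and granulocytes, and can also hold reticulocytes, the young red cells that still carry RNA for globins and haem enzymes. In bulk RNA of this kind, fewer cells of a type and less RNA per cell cannot be told apart.

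Values are log2 intensities, so a difference of 1 is a doubling of signal. Across the 9 blood arrays the leukocyte marker Ptprc lay between 10.63 and 10.99 and the T cell marker Cd3e between 8.86 and 10.03. The astrocyte gene Gfap lay between 4.40 and 4.84 and the neuronal gene Snap25 between 3.58 and 4.07, against 8.89 to 9.97 and 11.72 to 12.47 in the 9 brain arrays. Mbp, usually a myelin marker, did not separate the tissues in this way, with 7.72 to 8.89 in blood and 6.64 to 7.36 in brain for the probe used. The array of sham 3 stood apart. Its median over all probes was 5.23, against 4.96 to 5.06 on the other 8 blood arrays, and its correlation with the other sham arrays was 0.986 to 0.987, against 0.990 to 0.995 for the array pairs within the operated groups. Results are therefore also given without sham 3. Among the brain arrays sham 5 and vehicle-labelled rat 2 stood apart: Slc17a7, the vesicular glutamate transporter of cortical neurons, was at 5.10 and 7.28 on them, against 10.47 to 11.12 on the other 7, while Slc17a6, its counterpart in subcortical neurons, was at 8.96 and 9.03, against 4.07 to 5.86. Counts of called genes, and some of the differences, that rest on the brain are therefore also given without the brain array of sham 5. The number of arrays, 3 a group, limits the precision throughout.

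Of 14506 genes tested with limma over the 9 blood arrays, 0 had an adjusted p under 0.05 in model-labelled minus sham cells (0.0% called). At an unadjusted p under 0.05 there were 880 genes, 378 higher and 502 lower in model-labelled cells. At an adjusted p under 0.10 there were 16 genes, 14 higher and 2 lower, which is 0.11% of those tested. All 16 had model-labelled arrays that lay wholly on one side of the sham arrays. Without sham 3 the count at 0.05 was again 0. With the variance of each gene taken from all 27 arrays of the 3 tissues it was 12, and with arrays weighted by their quality it was 13. Since nothing passed in the planned fit, differences below are described by their values, and a gene called higher or lower below has not passed the test unless its adjusted p is stated to be under 0.05. Across all genes the model-labelled arrays lay wholly above the sham arrays for 681 genes (4.69%) and wholly below them for 925 (6.38%), and the median difference was -0.04. This split depends on the scaling: it was 986 above and 815 below after quantile normalization, and 1176 above and 640 below after centring each array on its median. Without sham 3 it was 2024 above and 1270 below, where with 2 sham arrays left a separation is easier to reach.

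Of the 16 genes, 6 encode cytosolic chaperones or their partners. Of 42 measured heat shock chaperone genes, 25 had model-labelled arrays wholly above the sham arrays, against 4.69% of all genes, and 0 lay wholly below. Their median difference was 0.40, against -0.04 over all genes. Of the 42 differences 41 were above 0, against 5589 of all 14506. None of the 42 had an adjusted p under 0.05. At an unadjusted p under 0.05 there were 24, each higher in model-labelled cells, against 378 higher of all 14506 genes. The count of 25 was 29 without sham 3 and 26 after quantile normalization. Over all 14506 genes the 681 wholly above became 2024 and 986 in these settings. This list and those below were chosen with earlier results of these data known. A high share of a list is therefore described here and not taken as a test.

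Hsph1, an Hsp110 protein that exchanges the nucleotide of Hsp70, had 7.62, 7.52 and 9.16 in model-labelled rats 1, 2 and 3, against 6.23, 6.20 and 6.29 in sham rats 3, 4 and 5 (probe 10756343). Every model-labelled value lay above every sham value, and model-labelled rat 3 stood above rats 1 and 2. The difference was 1.86 ± 0.32 (adjusted p = 0.085), and without sham 3 it was 1.85. Stip1, the adaptor between Hsp70 and Hsp90 (probe 10728361), had 9.16, 8.81 and 9.99 in model-labelled cells, against 7.78, 7.98 and 7.73 in sham cells. It differed by 1.49 ± 0.23 (adjusted p = 0.085; 1.47 without sham 3), with the same rat highest. The inducible Hsp90 gene Hsp90aa1 (probe 10892184) had 9.72, 9.44 and 10.64, against 8.54, 8.55 and 8.43, a difference of 1.43 ± 0.24 (adjusted p = 0.085). Sham values for this gene lay close together, whereas the model-labelled values spread out, again with rat 3 on top. Hsp90ab1, the constitutive form (probe 10921850), had 11.58, 11.46 and 11.88, against 10.84, 10.84 and 10.52, and differed by 0.91 ± 0.14 (adjusted p = 0.085). Fkbp4, an immunophilin that joins Hsp90 to steroid receptors (probe 10865855), had 8.41, 8.42 and 9.01, against 7.57, 7.55 and 7.47, and differed by 1.08 ± 0.16 (adjusted p = 0.085). Hspa8, the constitutive Hsp70, had 12.28, 12.38 and 12.49, against 11.70, 11.87 and 11.67, and differed by 0.64 ± 0.11 (adjusted p = 0.0906). Neither Hsp90ab1, Fkbp4 nor Hspa8 overlapped between groups, although Hspa8 was already among the brightest probes in sham cells. The stress-inducible Hsp70 genes Hspa1a and Hspa1b were in the list and had no matched probe with a single symbol here.

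**Figure D1:**
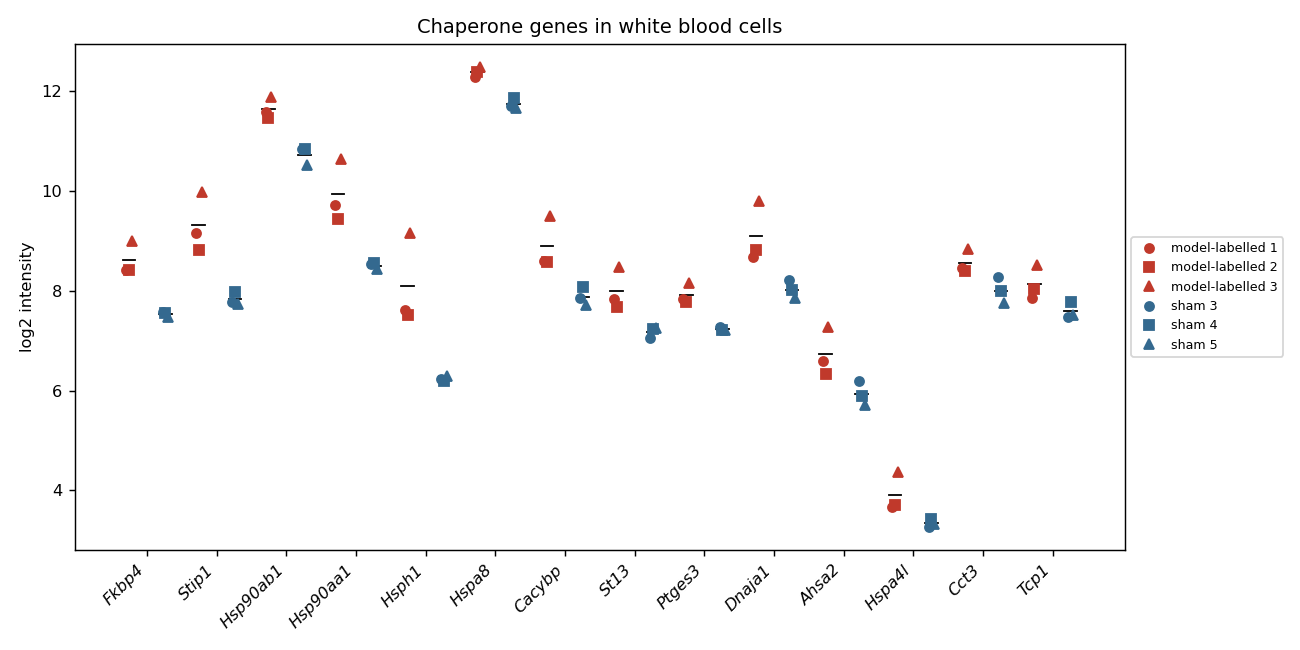
Log2 intensity (y axis) of the 14 heat shock chaperone genes with the smallest p, with 1 point per array, red for the model-labelled rats 1 to 3 and blue for the sham rats 3 to 5, and a black bar at each group mean. For every gene shown the 3 red points lie above the 3 blue points, and the red triangle of model-labelled rat 3 is the highest, as for Hsph1 at 9.16 against 7.62 and 7.52.

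The chaperone list holds several families; the genes of this paragraph outside the 4 smallest p were chosen after their values were seen, as whole families. All 8 subunits measured of the cytosolic chaperonin CCT, the ring that folds actin and tubulin, lay wholly above sham, with small differences from 0.24 for Cct5 to 0.56 for Cct3. The mitochondrial chaperonins Hspd1 and Hspe1 differed by 0.64 and 0.47. Among 11 Hsp90 partners, 8 lay wholly above sham, from 0.41 for Fkbp5 to 1.49 for Stip1, and Cdc37, which loads kinases onto Hsp90, differed by 0.01. Of 5 J-domain proteins, which stimulate Hsp70, Dnaja1 alone lay wholly above sham: it had 8.67, 8.82 and 9.81 in model-labelled cells, against 8.22, 8.01 and 7.85 in sham cells, a difference of 1.07 ± 0.25 (adjusted p = 0.273). Dnajb1 had 6.96, 7.17 and 7.97 in model-labelled cells, against 6.89, 6.91 and 6.96 in sham cells, with rat 3 well above the rest, and differed by 0.45 ± 0.20. The 3 small heat shock protein genes measured, Hspb1, Hspb8 and Cryab, lay between -0.10 and 0.06 and overlapped between groups. Their intensities were low in both groups, with Hspb1 at 3.84, 4.03 and 4.54 in model-labelled cells, against 4.23, 4.06 and 3.94 in sham cells. Hsf1 itself differed by 0.23 and overlapped.

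Model-labelled rat 3 had the highest value for 24 of the 25 chaperone genes that lay wholly above sham, and rat 2 for the other one. The mean of the 42 genes, set against the sham mean, was 0.32, 0.38 and 0.77 in model-labelled rats 1, 2 and 3, against 0.01, 0.04 and -0.04 in sham rats 3, 4 and 5. In the spleens of the same rats, as linked by the titles, it was 0.40, 0.50 and 0.87, against -0.0023, -0.0006 and 0.0029 in sham. In the brains it was 0.08, 0.41 and 0.19, against -0.14, -0.08 and 0.23 in sham. The groups overlapped through the brain array of sham 5 alone. Without that array every model-labelled brain lay above the other sham brains. Rat 3 was thus highest in white cells and in spleen but not in brain. Without model-labelled rat 3 the difference of Hsph1 was 1.33 (adjusted p = 0.00688) and that of Stip1 1.16 (adjusted p = 0.024), both smaller than with it and past the threshold. The third gene called without this rat was the palmitoyltransferase gene Zdhhc15 (-1.66, adjusted p = 0.00688), against 0 genes with all arrays. Without model-labelled rat 2, 2 genes were called, Stip1 (1.75, adjusted p = 0.018) and Hsp90aa1 (1.67, adjusted p = 0.048). The vehicle-labelled rats 2, 4 and 5 had chaperone means of 0.41, 0.53 and 0.69 in white cells, within the range of the model-labelled rats.

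**Figure D2:**
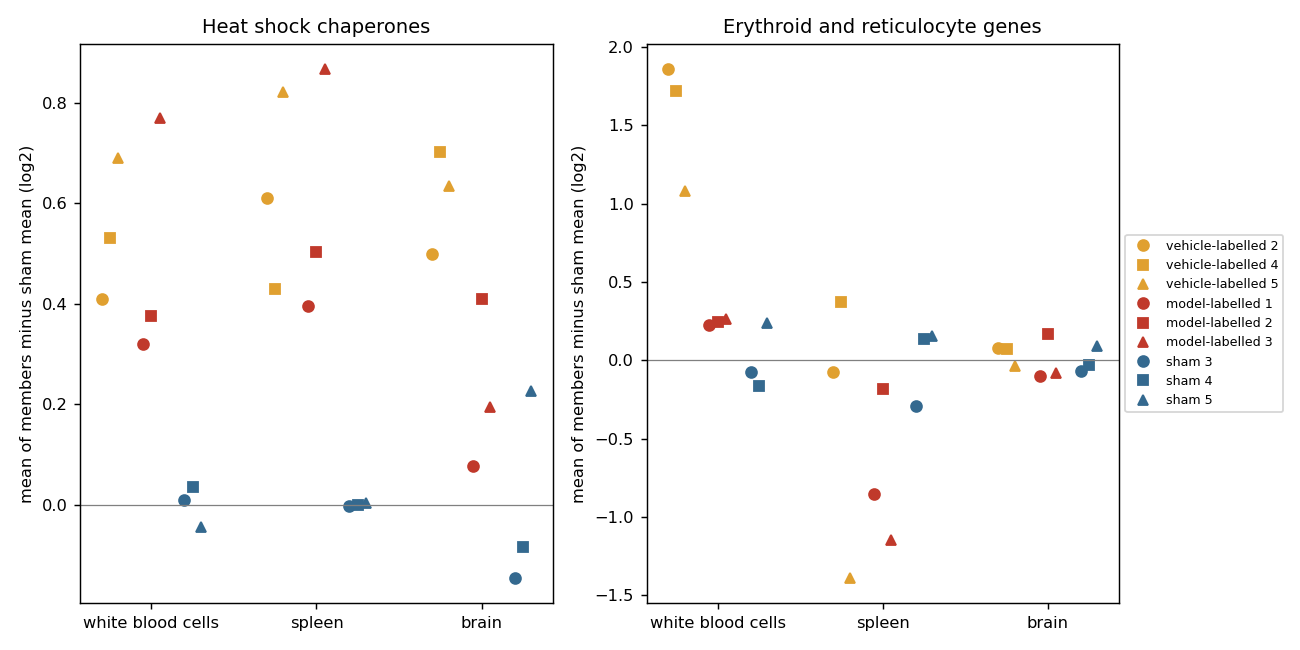
Mean log2 intensity of the members of each list minus the mean of the 3 sham arrays of the same tissue (y axis), with 1 point per rat in each tissue (x axis), for 42 chaperone genes on the left and 46 erythroid genes on the right. The chaperone mean of model-labelled rat 3 (red triangle) is 0.77 in white cells, 0.87 in spleen and 0.19 in brain, and the erythroid means of the vehicle-labelled white cells, 1.86, 1.72 and 1.08, stand above those of the model-labelled and sham cells.

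Chaperones of the endoplasmic reticulum were also higher in model-labelled cells. Of 24 endoplasmic reticulum stress genes, 9 lay wholly above sham (37.5%, against 4.69% of all genes) and 0 wholly below, and the median difference was 0.15. Pdia4, a disulfide isomerase (probe 10862361), had 8.30, 8.43 and 8.30 in model-labelled cells, against 7.63, 7.13 and 7.31 in sham cells, and differed by 0.99 ± 0.17 (adjusted p = 0.085). Hyou1, an Hsp110 relative in the same compartment, had 8.50, 8.32 and 8.65, against 7.90, 7.51 and 7.79, and differed by 0.76 ± 0.15 (adjusted p = 0.13). The model-labelled rats lay closer together for these than for Hsph1 or Stip1. Creld2 and Sdf2l1, both induced by unfolded proteins in this compartment, differed by 0.86 ± 0.19 and 0.75 ± 0.17 (adjusted p = 0.222 and 0.237). A further 3 members, chosen after their values were seen, are the main chaperones and a transcription factor of the compartment: Hsp90b1 differed by 0.60 ± 0.15, Hspa5 by 0.47 ± 0.14 and Xbp1 by 0.52 ± 0.16, each with model-labelled arrays wholly above sham. For 6 of these 7 genes, all but Creld2, the highest sham value was that of sham 3. Without it the differences of the 7 were 1.12, 0.84, 0.90, 0.82, 0.71, 0.55 and 0.66 in the order given. The number of members wholly above sham was then 14, and 1 lay wholly below. Over all 14506 genes 2024 then lay wholly above and 1270 wholly below. The mean of the 24 genes, set against the sham mean, was 0.20, 0.19 and 0.29 in model-labelled rats 1, 2 and 3, against 0.18, -0.17 and -0.01 in sham rats 3, 4 and 5.

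Red-cell genes formed the other large group. Of 46 erythroid and reticulocyte genes, 16 lay wholly above sham, against 4.69% of all genes, and 0 wholly below, with a median difference of 0.28. Alas2, which starts haem synthesis in erythroid cells, had 9.74, 9.65 and 9.94 in model-labelled cells, against 8.50, 8.45 and 9.10 in sham cells (probe 10932912). Its model-labelled values lay close together and above every sham value. It differed by 1.09 ± 0.19 (adjusted p = 0.0906; 1.00 without sham 3). The alpha globin gene Hba-a3, which is not in the list of 46, had 11.01, 10.77 and 10.79, against 9.88, 9.90 and 10.33, and differed by 0.82 ± 0.14 (adjusted p = 0.0865). Hbb-b1 and Hbb, beta globin genes, differed by 0.57 ± 0.11 and 0.44 ± 0.10 (adjusted p = 0.155 and 0.331). The globin genes are near copies of each other, so their probes may share signal and are not independent. Bpgm, the red-cell enzyme that makes the regulator of haemoglobin's oxygen affinity, had 8.68, 8.59 and 8.54, against 7.26, 7.60 and 7.99, and differed by 0.99 ± 0.20 (adjusted p = 0.18). Sham 5 had the highest sham value for each of these 5 genes. Not every red-cell gene was higher. Of the 46 differences 12 were below 0, and Xk, a membrane protein of red cells chosen here after its values were seen, had 6.28, 5.86 and 6.43 in model-labelled cells, against 5.75, 8.70 and 9.26 in sham cells. The mean of the 46 genes, set against the sham mean, was 0.23, 0.24 and 0.26 in model-labelled rats 1, 2 and 3, against -0.07, -0.16 and 0.24 in sham rats 3, 4 and 5, so that sham 5 reached the model-labelled values. Whether red-cell RNA had a part in the differences of other genes was not tested.

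The same red-cell genes were brighter in the vehicle-labelled white cells. Alas2 had 11.62, 11.47 and 10.95 in vehicle-labelled rats 2, 4 and 5, against 9.74, 9.65 and 9.94 in model-labelled rats 1, 2 and 3, a rise of 1.57 ± 0.19 (adjusted p = 0.000757, limma). Of the 46 genes, 30 rose in vehicle-labelled over model-labelled cells at an adjusted p under 0.05 and 0 fell, against 1.26% of all genes that rose. Among those chosen after their values were seen, Fech, which inserts iron into haem, rose by 2.08 ± 0.21, the Rh antigen gene Rhd by 2.28 ± 0.25, Ahsp, which stabilises free alpha globin, by 2.63 ± 0.34, and the carbonic anhydrase gene Car1 by 2.94 ± 0.34 (adjusted p = 0.000352, 0.000525, 0.000994 and 0.000591). Car1 had 9.29, 8.61 and 7.40 in vehicle-labelled cells and 5.34, 5.67 and 5.48 in model-labelled cells, against 5.01, 5.04 and 5.51 in sham cells, so model-labelled and sham values overlapped for it. In the spleen, a site of red-cell formation in rats, the median difference of the 46 genes was -0.745, against 0.28 in white cells. The spleen means of the 46 genes were -0.85, -0.18 and -1.14 in model-labelled rats 1, 2 and 3, against -0.29, 0.14 and 0.16 in sham rats 3, 4 and 5, so that model-labelled rat 2 lay above sham 3 and the groups overlapped. Alas2 differed by -0.76 ± 0.37 in spleen, with 10.07, 10.67 and 9.55 in model-labelled rats, against 10.30, 11.19 and 11.08 in sham rats, which also overlap. The difference between these differences was 1.85 ± 0.43 for Alas2 (adjusted p = 0.449) and did not pass the test. None of the 46 was called in that test with all arrays, and 1, Bpgm (1.95, adjusted p = 0.0476), was called without the spleen array of sham 3.

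**Figure D3:**
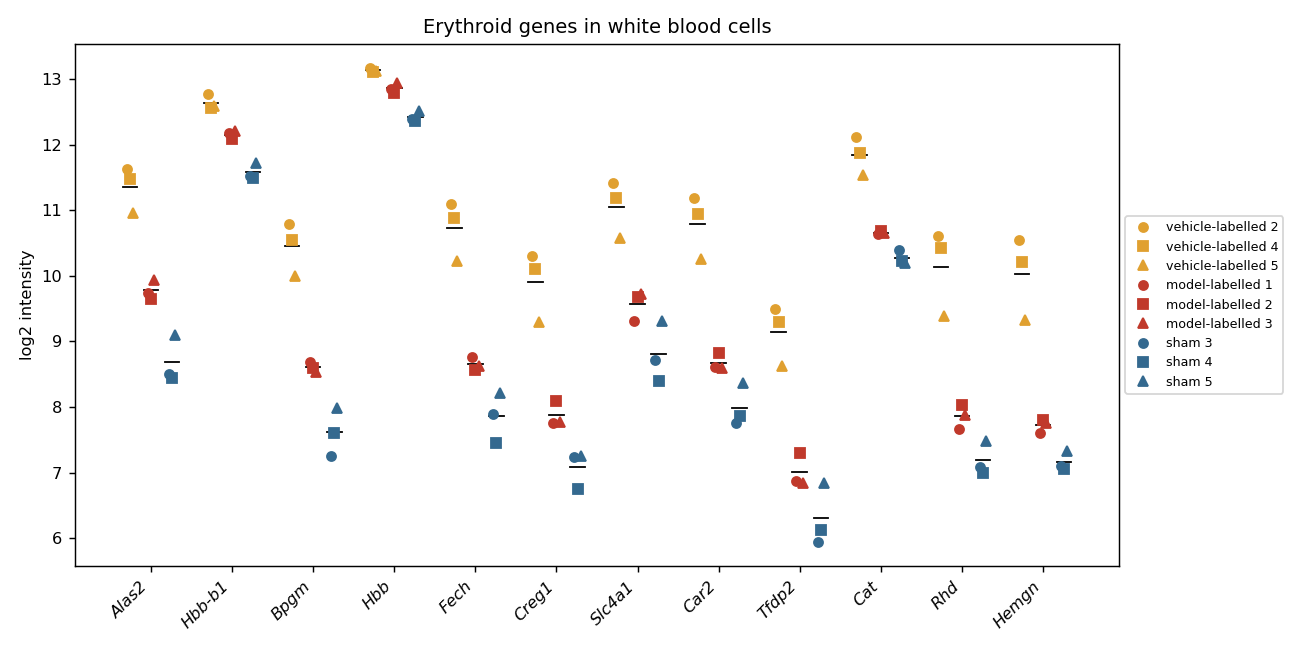
Log2 intensity (y axis) of the 12 erythroid genes with the smallest p in model-labelled minus sham white cells, with 1 point per array, yellow for vehicle-labelled, red for model-labelled and blue for sham rats, and a black bar at each group mean. Vehicle-labelled cells are brightest for each gene; for Alas2 they lie between 10.95 and 11.62, model-labelled cells between 9.65 and 9.94 and sham cells between 8.45 and 9.10.

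Neutrophil genes were followed in separate lists for receptors and for granule proteins. Members named from here on beyond the 4 with the smallest p in a list were chosen after their values were seen, since few members had separated. Of 24 genes for neutrophil receptors and activation, 5 lay wholly above sham (20.8%, against 4.69% of all genes) and 1 wholly below (4.17%, against 6.38%), with a median difference of 0.21. Csf3r, the receptor for the granulocyte growth factor G-CSF (probe 10871957), had 9.71, 9.80 and 9.61 in model-labelled cells, against 8.80, 8.85 and 8.96 in sham cells. The arrays of each group lay close together, and the difference was 0.84 ± 0.13 (adjusted p = 0.085; 0.80 without sham 3). Trem1, a receptor that amplifies neutrophil and monocyte activation, had 9.59, 9.82 and 9.51, against 9.05, 9.09 and 9.10, and differed by 0.56 ± 0.12 (adjusted p = 0.214). Clec4d, a lectin receptor of myeloid cells, differed by 0.98 ± 0.22 (adjusted p = 0.237) and Ptafr, the receptor of platelet-activating factor, by 0.53 ± 0.18 with overlapping arrays. The complement receptor gene C5ar1 and the integrin gene Itgam, both wholly above sham, differed by 0.40 ± 0.17 and 0.29 ± 0.15, and Itgb2, the integrin chain that pairs with Itgam, lay wholly below at -0.23 ± 0.12. The chemokine receptor gene Cxcr2 differed by 0.71 ± 0.29 with overlap. Of 24 granule protein genes, 0 lay wholly above sham and 1 wholly below, and their median was 0.08. Camp, an antimicrobial peptide, had 4.28, 4.65 and 4.38 in model-labelled cells, against 4.77, 4.41 and 4.85 in sham cells, and Pglyrp1, a bacterial wall-binding protein, 6.17, 5.83 and 7.05, against 6.23, 5.78 and 5.35. Ctsg, a granule protease, differed by -0.18 ± 0.11 and Defa5, a defensin, by -0.36 ± 0.18. In vehicle-labelled over model-labelled cells 6 of the 24 granule genes rose, against 1.26% of all genes, among them Camp by 1.04 ± 0.14 and Pglyrp1 by 1.88 ± 0.34 (adjusted p = 0.00136 and 0.0124).

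Among 25 monocyte and macrophage genes, 2 lay wholly above sham (8.0%, against 4.69% of all genes) and 4 wholly below (16.0%, against 6.38%). After centring each array on its median the split was 6 above and 3 below, against 1176 and 640 of all 14506 genes. Nrp1, a co-receptor for semaphorins and growth factors (probe 10808959), had 6.19, 6.23 and 5.74 in model-labelled cells, against 6.99, 7.92 and 6.82 in sham cells, where sham 4 was highest, and differed by -1.19 ± 0.25 (adjusted p = 0.209). Lpl, which releases fatty acids from lipoproteins, had 3.92, 3.93 and 3.79, against 4.52, 4.61 and 4.46, and differed by -0.65 ± 0.14 (adjusted p = 0.214), at a low intensity in both groups. Lgmn, a lysosomal protease, differed by 0.44 ± 0.11 and Spn, the sialophorin of leukocytes, by -0.48 ± 0.17. Marco, a scavenger receptor, lay wholly below sham by a small difference (-0.13 ± 0.13). Cd14, a co-receptor for bacterial lipopolysaccharide, had 10.66, 10.79 and 10.61 in model-labelled cells, against 10.48, 9.56 and 10.24 in sham cells, and differed by 0.59 ± 0.21.

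The lymphocyte lists held few separated genes, against 4.69% above and 6.38% below over all genes. Of 27 T cell genes, 2 lay wholly above sham and 0 wholly below, with a median of 0.21. One was Il7r, the receptor for the survival factor IL-7, with 8.63, 8.74 and 8.87 in model-labelled cells, against 8.04, 8.01 and 7.99 in sham cells, and a difference of 0.73 ± 0.18 (adjusted p = 0.332). The other was Ccr7, which guides T cells to lymph nodes, with a difference of 0.44 ± 0.18. Without sham 3 the median of the T cell list was 0.00, with 2 members above and 1 below. Over all 14506 genes 2024 and 1270 then did so. The list means of the groups overlapped, at 0.21, -0.04 and 0.32 in model-labelled rats, against -0.23, 0.30 and -0.07 in sham rats. Ubash3a and Cd28, a regulator and a co-receptor of T cell activation, differed by 0.41 ± 0.17 and 0.37 ± 0.22 with overlap. In the B cell list 0 of 19 genes separated in either direction, and Cr2, Btk, Cd180 and Ebf1, those with the smallest p, lay between -0.48 and 0.39. Of 30 cytotoxic and natural killer genes 1 lay wholly above sham, the receptor gene Klrb1b (0.57 ± 0.18), and 1 wholly below, the activating receptor gene Klrk1 (-0.30 ± 0.12). The lectin-like receptor genes Klri1 and Klri2 differed by -0.54 ± 0.25 and 0.70 ± 0.37 with overlap. In the list for MHC class II and antigen presentation 1 of 29 separated, Flt3, the growth factor receptor of dendritic cell precursors (0.46 ± 0.12); RT1-DOa, Tapbp and Cd74, which load or chaperone MHC molecules, differed by -0.51 ± 0.20, -0.37 ± 0.15 and 0.46 ± 0.21 and overlapped.

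Lists of inflammatory signalling are read against the shares over all genes, 4.69% wholly above sham and 6.38% wholly below. Of 21 genes of STAT3 signalling and SOCS feedback, 4 lay wholly above sham (19.0%) and 0 wholly below, with a median of 0.15. They were Socs2 and Socs3, inhibitors of cytokine receptors, which differed by 0.42 ± 0.11 and 0.42 ± 0.13, Il10rb, a chain of the IL-10 receptor (0.42 ± 0.14), and Il6st, the shared chain of the IL-6 receptor family (0.38 ± 0.13). Socs3 had 8.94, 8.58 and 8.88 in model-labelled cells, against 8.39, 8.47 and 8.27 in sham cells. In the list for NF-kappaB and Toll-like receptors, 4 of 27 lay wholly above sham (14.8%), namely Tlr2, a receptor for bacterial lipoproteins (0.51 ± 0.15), the inhibitor Tnip1 (0.46 ± 0.14), the tumour necrosis factor receptor gene Tnfrsf1a (0.39 ± 0.15) and the adaptor gene Myd88 (0.38 ± 0.17), and 1 wholly below, Nod1, a sensor of bacterial walls (-0.35 ± 0.16). Without sham 3 the difference of Myd88 was 0.17. Of 40 cytokine and chemokine genes, 1 lay wholly above (2.5%) and 5 wholly below sham (12.5%), with a median of -0.10. This split depends on the scaling. It was 3 above and 3 below after quantile normalization, where all 14506 genes had 986 and 815. After median centring it was 4 above and 3 below (1176 and 640 over all genes). Without sham 3 it was 5 above and 6 below (2024 and 1270 over all genes), and the median was -0.03. Cxcl16, a membrane-bound chemokine (probe 10744460), had 5.42, 5.08 and 5.31 in model-labelled cells, against 6.14, 8.24 and 6.77 in sham cells, and differed by -1.78 ± 0.46 (adjusted p = 0.408). Sham 4 stood far above the other sham arrays. Il36b, a cytokine of the IL-1 family, differed by -0.57 ± 0.13 and the chemokine Ccl6 by -0.60 ± 0.19, both wholly below sham, as were Cxcl13 and Ccl22 by -0.18 ± 0.11 and -0.11 ± 0.10. The one above was Tnf, which encodes tumour necrosis factor (0.21 ± 0.12). Ccl2, which attracts monocytes, had 6.38, 6.88 and 5.41, against 7.05, 6.66 and 7.10, and overlapped.

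The lists of stress and hormone responses are read against the same shares, 4.69% above and 6.38% below. Of 7 genes known for induction by cold or for splicing changes with temperature, 3 lay wholly below sham. After quantile normalization or median centring 2 did, where 815 and 640 of all 14506 genes lay wholly below. Of the 7 differences 3 were above 0 and 4 below, with a median of -0.06, against -0.04 over all genes. Cirbp, the cold-inducible RNA-binding protein gene (probe 10900583), had 7.06, 7.02 and 6.85 in model-labelled cells, against 7.56, 7.71 and 7.62 in sham cells, and differed by -0.65 ± 0.12 (adjusted p = 0.0906). Its relative Rbm3 had 9.45, 9.40 and 9.70, against 9.92, 10.22 and 9.88, and differed by -0.49 ± 0.15 (adjusted p = 0.604), while the splicing factor genes Srsf5 and Srsf2 differed by -0.24 ± 0.14 and 0.17 ± 0.14. No label gives the body temperature of the rats. Of 34 targets of the hypoxia-inducible factor, 6 lay wholly above sham (17.6%) and 1 wholly below (2.94%). P4ha1, a subunit of the enzyme that hydroxylates proline in collagen, had 7.73, 7.54 and 8.69, against 6.39, 6.48 and 6.93, and differed by 1.39 ± 0.26 (adjusted p = 0.09997), again with rat 3 highest. Hk2, which phosphorylates glucose, differed by 0.67 ± 0.16, Egln3, an oxygen-sensing hydroxylase, by 0.38 ± 0.14, Pgam1, an enzyme of glycolysis, by 0.32 ± 0.12, Hif1a itself by 0.38 ± 0.15, Bnip3, a protein of mitochondrial clearance, by 0.24 ± 0.11, and the glucose transporter gene Slc2a3 by -0.62 ± 0.19, wholly below sham. Of 43 interferon-stimulated genes 2 lay wholly above sham (4.65%), near the 4.69% of all genes, and 1 wholly below (2.33%). Of the 43 differences 14 were above 0 and 29 below, with a median of -0.10 (-0.025 without sham 3). The 2 above were Bst2, which tethers budding virus, with 6.47, 6.31 and 7.09, against 5.77, 5.40 and 5.36, and Rsad2, an antiviral enzyme, with 8.34, 8.87 and 8.54, against 7.65, 7.75 and 8.26. Gbp2 lay wholly below by -0.27 ± 0.12, and Ifit2 and Irf9 differed by -0.61 ± 0.23 and -0.30 ± 0.13 with overlap. Of 30 immediate early genes 3 lay wholly above sham, Myc (0.57 ± 0.17), Nr4a3 (0.34 ± 0.12) and Klf6 (0.30 ± 0.11), all transcription factors, and 1 wholly below, Egr2 (-0.21 ± 0.11). Nr4a1, a nuclear receptor of the same family as Nr4a3, overlapped between groups at -0.54 ± 0.21. Of 29 glucocorticoid-induced genes 1 lay wholly above, the Hsp90 partner Fkbp5, with 7.34, 7.45 and 7.56 in model-labelled cells, against 7.06, 6.92 and 7.15 in sham cells. Il1r2, a decoy receptor for IL-1, differed by 1.08 ± 0.45 with overlapping arrays, Cd163, a haemoglobin scavenger receptor, by -0.36 ± 0.17 with overlap, and Sult1a1, a sulfotransferase, by -0.25 ± 0.11.

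**Figure D4:**
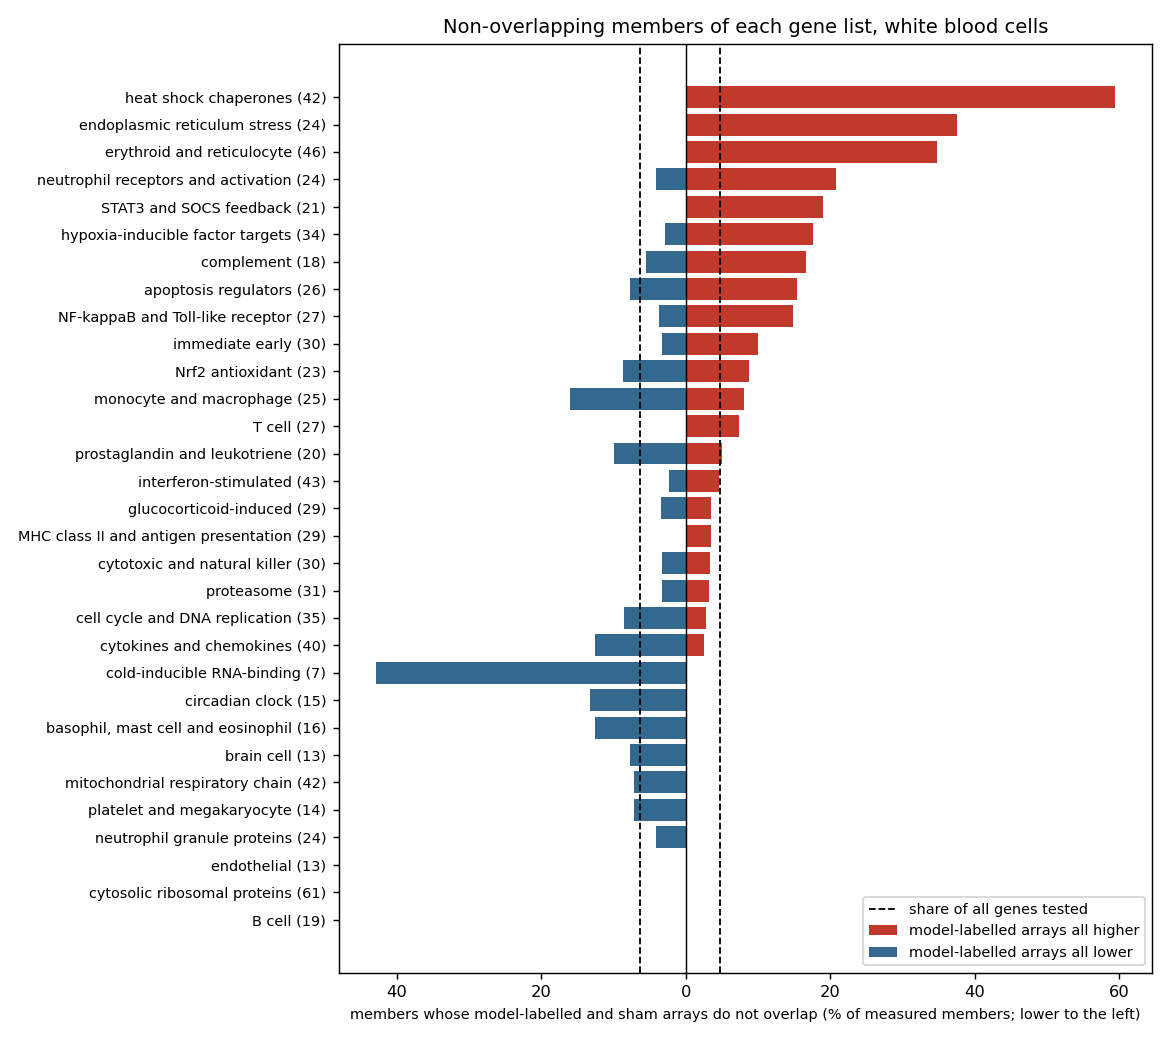
Share of measured members (x axis, percent, with the number measured in brackets) whose 3 model-labelled arrays lay wholly above (red, to the right) or wholly below (blue, to the left) the 3 sham arrays, for the 31 gene lists, with dashed lines at the share of all genes tested, 4.69% above and 6.38% below. Heat shock chaperones reach 59.5% above, endoplasmic reticulum stress genes 37.5% and erythroid genes 34.8%, while 0 of 61 cytosolic ribosomal protein genes separated in either direction. The lists were chosen with earlier results of these data known.

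The remaining lists hold housekeeping genes, regulators and markers of other cells. They too are read against the shares over all genes, 4.69% wholly above sham and 6.38% wholly below. Cell cycle genes, at 2.86% above and 8.57% below, and proteasome genes, at 3.23% each way, lay near these shares. Of 61 cytosolic ribosomal protein genes 0 separated in either direction, and their median was 0.01; Rpl23, Rpl14, Rps3a and Rpl5 had the smallest p and differed by 0.26 ± 0.13, 0.38 ± 0.19, 0.43 ± 0.26 and 0.26 ± 0.16. Sham 3 was lowest for each of them, and without it Rps3a differed by 0.00. Of 31 proteasome genes 1 lay wholly above (Psmd6, 0.13 ± 0.12) and 1 wholly below (Psmc3, -0.24 ± 0.11), and of 42 respiratory chain genes 0 and 3, namely Cox6c (-0.27 ± 0.12), Ndufa2 (-0.29 ± 0.15) and Ndufb8 (-0.19 ± 0.13). Among 23 Nrf2 antioxidant genes Sod1, the cytosolic superoxide dismutase, had 9.08, 8.90 and 9.17 in model-labelled cells, against 8.62, 8.16 and 8.11 in sham cells, and differed by 0.75 ± 0.16 (adjusted p = 0.191). Cat, which breaks down hydrogen peroxide and is abundant in red cells, differed by 0.38 ± 0.14, wholly above, and rose by 1.19 ± 0.14 in vehicle-labelled over model-labelled cells (adjusted p = 0.000668). In that list Sqstm1 and Tkt lay wholly below by -0.22 ± 0.12 and -0.21 ± 0.12. Of 35 cell cycle genes 1 lay above (Rrm2, 0.28 ± 0.18) and 3 below, Ccne1, the cyclin of entry into S phase (-0.42 ± 0.14), and the mitotic kinase genes Aurkb (-0.22 ± 0.14) and Ttk (-0.21 ± 0.11). Of 15 clock genes 2 lay below, Per3 (-0.39 ± 0.15) and Tef (-0.38 ± 0.16). Of 18 complement genes 3 lay above (16.7%), the protease gene Cfd (0.54 ± 0.20) and the receptor genes C5ar1 and Itgam given above, and 1 below, the complement inhibitor gene Cd55 (-0.33 ± 0.13). Of 20 prostaglandin and leukotriene genes 1 lay above, Ptges3 (0.69 ± 0.15), which is also the Hsp90 co-chaperone p23. In this list 2 lay below, the prostaglandin receptor gene Ptger3 (-0.19 ± 0.10) and the synthase gene Hpgds (-0.14 ± 0.12). After quantile normalization the split was 2 above and 0 below, against 986 and 815 of all 14506 genes. Of 26 apoptosis regulators 4 lay above (15.4%), Bnip3, the caspase inhibitor gene Xiap (0.22 ± 0.11), Tp53inp1 (0.22 ± 0.14) and Bid (0.09 ± 0.10), and 2 below, the death receptor gene Fas (-0.30 ± 0.14) and Bbc3 (-0.20 ± 0.11). Mcl1, a survival factor of granulocytes, had 10.49, 10.61 and 10.54, against 9.17, 10.57 and 10.28, with sham 3 far below the rest, and differed by 0.54 ± 0.26 with sham 3 and 0.12 without it. In the basophil, mast cell and eosinophil list 0 of 16 lay above and 2 below, Prg3, an eosinophil granule protein (-0.22 ± 0.13), and the eotaxin receptor gene Ccr3 (-0.20 ± 0.14), and in the platelet list 0 of 14 above and 1 below, the integrin gene Itgb3 (-0.18 ± 0.11). Selp, the adhesion receptor of activated platelets, had 7.23, 6.34 and 6.94 in model-labelled cells, against 8.09, 6.80 and 7.64 in sham cells. Of 13 brain cell genes 1 lay below, Gfap (-0.21 ± 0.13), and of 13 endothelial genes 0 separated.

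Outside the lists, the genes with the largest separated differences included, besides Hba-a3, 4 further ones under an adjusted p of 0.10. Npr1, the receptor of atrial natriuretic peptide, had 6.42, 6.34 and 6.26 in model-labelled cells, against 5.62, 5.39 and 5.57 in sham cells, and differed by 0.81 ± 0.15 (adjusted p = 0.091). Abhd15, a protein of insulin-regulated fat breakdown in adipocytes, had 6.92, 6.90 and 7.07, against 6.12, 6.01 and 6.39, and differed by 0.79 ± 0.13 (adjusted p = 0.085). Gprasp3 had 5.12, 4.97 and 5.03, against 4.30, 4.26 and 4.48, and differed by 0.69 ± 0.11 (adjusted p = 0.085). Serpinb6a, an intracellular serine protease inhibitor, had 8.69, 9.26 and 8.80, against 10.19, 9.73 and 10.00, and differed by -1.06 ± 0.19 (adjusted p = 0.0906). In none of the 4 did the groups overlap. Abhd15, Gprasp3, Npr1, Hba-a3 and Hspa8 are named because they lie among the 16, after their values were seen. Among larger but less even differences, Lbp, which carries bacterial lipopolysaccharide to Cd14, had 9.70, 9.52 and 10.03, against 7.87, 8.96 and 9.02, and sham 3 was the lowest, so that the difference was 1.13 ± 0.27 with it and 0.76 without it. Plod1, a collagen lysyl hydroxylase, differed by 1.07 ± 0.23, Cacybp, an Hsp90 and ubiquitin ligase partner, by 1.01 ± 0.22, and Clec10a, a galactose-binding lectin of macrophages and dendritic cells, by 0.93 ± 0.20. On the lower side, Fads1, a fatty acid desaturase, had 9.02, 8.99 and 8.67, against 9.88, 9.58 and 10.40, and differed by -1.06 ± 0.20 (adjusted p = 0.122). Slc2a4, the insulin-responsive glucose transporter, differed by -1.02 ± 0.23, with sham 5 above the other sham arrays. Ssx2ip, Ccdc92, Enpp5, Serpinb10, Cyb5r4, Etfa, Tgfb1i1 and Ptgr2 lay between -0.87 and -0.62, with adjusted p from 0.237 to 0.605.

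The same differences were also taken in the spleen and the brain of the same rats and set beside those in white cells. The difference of differences between white cells and spleen had 0 genes at an adjusted p under 0.05 in limma over all 27 arrays (0.0% called) and 861 at an unadjusted p under 0.05. Without the spleen array of sham 3 there were 7, all with the more positive value in white cells. They were Rnase17 (2.85), Prg3 (2.31), Bpgm (1.95), Mcpt10 (1.79), Hba-a3 (1.75, adjusted p = 0.0278), Cenpu (1.40) and Il5ra (1.21). Prg3 and Il5ra are in the basophil, mast cell and eosinophil list, and Bpgm is in the erythroid list. Stip1 differed by 1.49 ± 0.23 in white cells and 1.38 ± 0.20 in spleen, Hsph1 by 1.86 ± 0.32 and 1.41 ± 0.31, Fkbp4 by 1.08 ± 0.16 and 1.33 ± 0.19, Pdia4 by 0.99 ± 0.17 and 1.05 ± 0.18, and Cirbp by -0.65 ± 0.12 and -0.79 ± 0.14. For Hsp90aa1 the values were 1.43 ± 0.24 and 0.81 ± 0.15. The median of the 42 chaperones was 0.40 in white cells, 0.50 in spleen and 0.09 in brain, where it was 0.18 without the brain array of sham 5. These are values side by side from the same rats, and the test does not show that the tissues are alike. Neither this test nor that against brain had a term for the rat, so the arrays of a rat were treated as independent.

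Against the brain, 155 genes had different differences (1.07%), 12 with the more positive value in white cells and 143 with the more positive value in brain. Without the brain array of sham 5 there were 135, of which 118 were among the 155. Hsp90aa1 differed by 1.43 ± 0.24 in white cells and -0.08 ± 0.12 in brain, and the difference between them was 1.50 ± 0.29 (adjusted p = 0.0059). Fkbp5 differed by 0.41 ± 0.13 in white cells and -0.64 ± 0.11 in brain (1.05 ± 0.17, adjusted p = 0.00102), and Cacybp by 1.01 ± 0.22 and -0.30 ± 0.19 (1.30 ± 0.31, adjusted p = 0.0369). In limma without the brain array of sham 5, Cacybp was not called (1.14 ± 0.32, adjusted p = 0.112). Hsp90aa1 (1.41 ± 0.30, adjusted p = 0.0193) and Fkbp5 (1.09 ± 0.19, adjusted p = 0.00179) were called again. The small heat shock protein gene Hspb1 went the other way, with 0.06 ± 0.17 in white cells and 2.80 ± 0.52 in brain (-2.74 ± 0.64, adjusted p = 0.0336). Of the 42 chaperones, 3 were called with the more positive value in white cells and 1 in brain. Without the brain array of sham 5 these counts were 2 and 1. Some chaperones not called here were also higher in model-labelled brains. The mean of the 42 overlapped there only through the brain array of sham 5. Hsph1 had 9.54, 9.81 and 9.44 in model-labelled brains, against 8.35, 8.35 and 8.69 in sham brains. Dnajb1 and Bag3, chosen after their values were seen, also lay wholly above sham in brain. Of 30 immediate early genes, 18 had a more positive difference in brain at an adjusted p under 0.05, against 0.986% of all genes, and 0 in white cells. The brain array of sham 5 was also low in these genes: their mean, set against the sham mean, was 2.04, 1.70 and 1.72 in model-labelled brains, against 0.24, 0.24 and -0.48 in sham brains 3, 4 and 5. Without it 16 were called in the same direction. Nr4a1 had 10.55, 9.85 and 10.04 in model-labelled brains, against 7.43, 7.40 and 5.11 in sham brains 3, 4 and 5, so that every model-labelled value lay above every sham value. It differed by -0.54 ± 0.21 in white cells and 3.50 ± 0.55 in brain, and by 2.73 ± 0.28 in brain without sham 5 (difference between the tissues -3.27 ± 0.45, adjusted p = 0.000182). Of 40 cytokine and chemokine genes 7 were called in the same direction, and 5 without the brain array of sham 5, among them Ccl2 with -0.71 ± 0.31 in white cells and 3.96 ± 0.58 in brain (-4.68 ± 0.84, adjusted p = 0.00254), where sham 5, at 5.26, lay between the other sham brains.

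**Figure D5:**
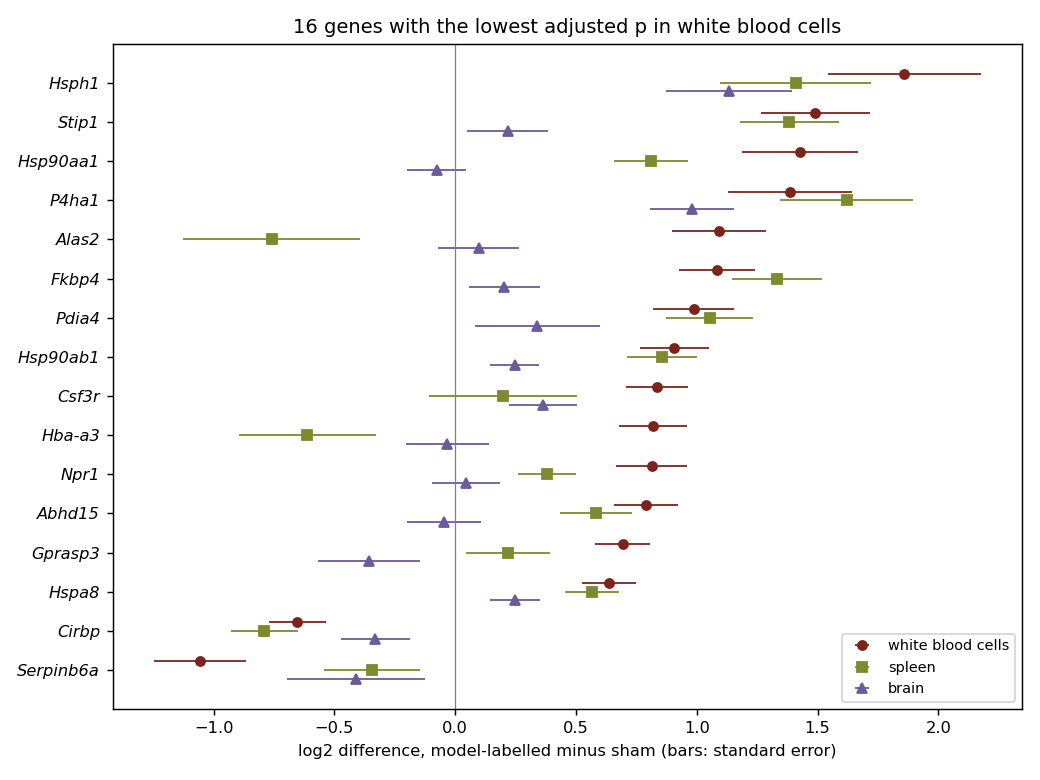
Log2 difference, model-labelled minus sham, with its standard error (x axis) for the 16 genes at an adjusted p under 0.10 in white cells (y axis), in white cells (dark red circles), spleen (green squares) and brain (purple triangles). Stip1 lies at 1.49 in white cells, 1.38 in spleen and 0.22 in brain, whereas Alas2 lies at 1.09, -0.76 and 0.10.

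The vehicle-labelled white cells were tested against the model-labelled ones because both groups were operated. Here 226 genes were called (1.56%), 183 of them higher in vehicle-labelled cells and 43 lower. The count was 108 without model-labelled rat 1, 149 without model-labelled rat 2, 127 without model-labelled rat 3, 112 without vehicle-labelled rat 2 and 113 without vehicle-labelled rat 4. None of the 42 chaperones was called in either direction in this limma test, and their median difference was 0.06, against -0.02 over all genes. Hsph1 had 8.26, 8.71 and 8.48 in vehicle-labelled cells, against 7.62, 7.52 and 9.16 in model-labelled cells, a difference of 0.38 ± 0.32 (adjusted p = 0.776). Csf3r had 9.33, 9.69 and 9.75, against 9.71, 9.80 and 9.61, a difference of -0.12 ± 0.13 (adjusted p = 0.851). The antiviral gene Rsad2 rose by 2.00 ± 0.24 (adjusted p = 0.000682), Alox15, a lipoxygenase of reticulocytes and eosinophils, by 1.82 ± 0.31 (adjusted p = 0.00768), Serpinb10 by 1.13 ± 0.16 (adjusted p = 0.00153) and Slc2a3 by 1.12 ± 0.19 (adjusted p = 0.00861) in vehicle-labelled over model-labelled cells. Which of the groups was given YJ is not known, so none of these differences can be assigned to it.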

How the data were processed

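Per the labels' protocols and the series' design text, total RNA was extracted with a Qiagen kit and put on Affymetrix Rat Genome 1.0 arrays. RMA is named in the submitters' processing notes, in a version not given in the sources used here. The authors' deposited values were read as log2 intensities because they ran from 1.53 to 13.49, although the log base is not stated. Which arrays were normalized together is not given either. Of 27596 probes, 15310 with exactly 1 gene symbol in the platform annotation were kept. For 527 genes with several probes, the probe brightest on average over all 27 arrays stood for the gene, which left 14506 genes. Coordinates and sequences are not used here.

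A mean per group was fitted to the 9 blood arrays in limma 3.58.1 (R 4.3.3, moderated test, 2-sided), and p-values were adjusted by Benjamini-Hochberg over all genes, with a gene called at an adjusted p under 0.05. Differences between tissues were tested in a fit of all 27 arrays. It had a mean per tissue and group and no term for the rat. The arrays of a rat were thus treated as independent. The script was tested on simulated data. Values after ± are standard errors of the fit. Each group has 3 rats per the titles, with 1 array for each tissue of a rat.

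Named genes are the called ones with the largest differences, up to 15 a side, filled up with separated genes at an unadjusted p under 0.01, and the 4 members of each list with the smallest p. Olfactory receptors and predicted genes are not named. The members, the 31 lists (816 genes measured) and the rule were chosen with earlier results of these data known. The alternatives varied, singly, the arrays fitted, normalization, filter, probe choice, prior, array weights, a block on the replicate number, the threshold, and leaving out each array. Same-numbered blood arrays of different groups had residual correlations from -0.279 to 0.016, so the numbers were not taken to pair rats.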

Additional observations from a re-analysis of the deposited data

Results flagged for a closer look

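Named genes whose model-labelled minus sham difference was itself different in white blood cells and in brain are given here, with the white cell minus brain value of limma over all 27 arrays and its adjusted p. A more positive difference in white cells was found for Hsp90aa1 (1.50, adjusted p = 0.0059), Cacybp (1.30, adjusted p = 0.0369), Fkbp5 (1.05, adjusted p = 0.00102), Sod1 (1.05, adjusted p = 0.0359), Gprasp3 (1.05, adjusted p = 0.0401), Bnip3 (0.89, adjusted p = 0.0118) and Abhd15 (0.84, adjusted p = 0.0476). A more positive difference in brain was found for Ccl2 (-4.68, adjusted p = 0.00254), Nr4a1 (-4.04, adjusted p = 0.000423), Cxcl16 (-2.95, adjusted p = 0.0244), Hspb1 (-2.74, adjusted p = 0.0336), Socs3 (-1.92, adjusted p = 0.000412) and Cd14 (-1.67, adjusted p = 0.0336). The same direction held for Cd55 (-1.61, adjusted p = 0.00675), Fads1 (-1.57, adjusted p = 0.00115), Nr4a3 (-1.53, adjusted p = 0.0171), Nrp1 (-1.35, adjusted p = 0.0426), Lpl (-1.21, adjusted p = 0.0444), Egr2 (-3.11, adjusted p = 5.41e-06) and Itgb2 (-0.87, adjusted p = 0.0457). Hsp90aa1, Cacybp and Hspb1 are chaperones or their partners, whereas Ccl2, Cxcl16, Nr4a1, Nr4a3 and Egr2 are chemokines or transcription factors induced early by stimuli. Without the brain array of sham 5, which stood apart in its neuronal genes, all 20 kept their direction and 15 were called again, while Cacybp, Lpl, Sod1, Gprasp3 and Abhd15 were not (adjusted p from 0.103 to 0.138). No named gene was called for a difference between white cells and spleen with all arrays. Groups of 3 arrays are too small for a test of single outlying arrays.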

How the results depend on the processing

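For model-labelled minus sham white cells, 0 genes passed, and 0 passed with only the 6 arrays, with quantile normalization, median centring, a filter at the 40th percentile, the mean of all probes, the probe highest in blood, all probes unfiltered, a trend and robust prior, or a minimum difference of 1. The count was 12 with all 27 arrays in the fit (9 higher), 13 with array weights (12 higher) and 16 at an adjusted p under 0.10 (14 higher). Leaving out 1 array gave 0 to 3. For vehicle-labelled minus model-labelled cells the 226 calls became 333 with only those arrays, 197 with quantile normalization and 217 with a trend and robust prior, and leaving out 1 array gave 108 to 273. The test of white cells against spleen gave 2 genes in place of 0 with only the 12 model-labelled and sham arrays of both tissues and 0 to 7 when 1 array was left out (7 without the spleen array of sham 3). That against brain, 155 genes, gave 138 and 142 in the other fits, 110 to 174 when 1 array was left out and 190 without the brain arrays of sham 5 and vehicle-labelled rat 2. Leaving out brain or spleen arrays was chosen after seeing the data. The cause of these shifts was not tested.

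The numbers of the blood arrays were not taken to pair rats. With the replicate number as a block, 0 genes passed for model-labelled minus sham, which share only number 3, and 7 for vehicle-labelled minus model-labelled, 5 of them among the 226. Residual correlations of same-numbered arrays were -0.279 to 0.016. With so few arrays these cannot show whether same-numbered rats shared a batch, and no label gives a batch.

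Of 177 genes followed one by one, 19 passed the threshold under at least 1 alternative, and 3 changed sign. P2ry1, a purine receptor gene, lay at -0.29, and at -0.475 to 0.03 with 1 array left out, turning without sham 5. Hspb1 lay at 0.06, and at -0.1417 to 0.2083, falling to -0.14 without model-labelled rat 3 and -0.0083 without sham 5. Car1 lay at 0.31 and, with the replicate block, at -0.074. None of the 3 passed in any of these. Low intensities, as for Hspb1, limit what small differences can show.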
